A study of Mus musculus with 8 samples.

Results

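A set of 10 genes of the extracellular matrix proteolysis system were followed in macrophages sorted from mouse lung, namely the matrix metalloproteinases Mmp9, Mmp2, Mmp8, Mmp13, Mmp12, Mmp19 and Mmp14 and the tissue inhibitors of metalloproteinases Timp1, Timp2 and Timp3. These 10 members were chosen by name from the 22597 genes of the deposited table, with earlier results of the same comparison known, so their differences between genotypes are given as a description and without p-values. All 10 were among the 12750 genes that passed the filter on low counts.

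The libraries held polyadenylated RNA of cells sorted as lung interstitial macrophages, which lie in the tissue outside the air spaces. All recipients were female C57BL/6 mice of the CD45.1/CD45.2 IMDTR line, called Cx3cr1-DTR in the same labels, in which diphtheria toxin deletes the host's own interstitial macrophages. They were irradiated with the thorax shielded and given bone marrow of 1 of 2 donor genotypes. Lyz2Cre Tgfbr2fl/fl donors gave the Tgfbr2_KO group (KO 1 to 4), and Tgfbr2fl/fl donors without Cre gave the WT group (WT 1 to 4), so both groups carried the floxed alleles of the type II TGF-β receptor. Every recipient got 50 ng of diphtheria toxin 1 month after transplantation, and cells were taken 10 days later. The recipients were 18 weeks old per the protocol and 12 to 16 weeks old per the sample labels. Lyz2-driven Cre acts in monocytes, macrophages and neutrophils, and because only KO donors carried it, effects of Cre and of receptor loss cannot be told apart. How many host macrophages remained is not stated. The labels do not tie libraries to single mice, and the p-values below reflect the spread of these libraries, part of which may be technical.

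Matrix metalloproteinases are zinc-dependent enzymes that cut collagens, elastin, proteoglycans and cell-surface proteins. Most are secreted as inactive proenzymes and are activated outside the cell by other proteases, while MMP14 is anchored in the cell membrane. TIMPs bind the active site and block it. In lung, macrophages and neutrophils are known sources of MMP8, MMP9 and MMP12, and fibroblasts are a known source of MMP2 and TIMP3. TGF-β is a known regulator of this balance between enzymes and inhibitors, and its effect on each gene differs between cell types.

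Promoters of 4 genes are shown because 3 of these genes (Mmp13, Mmp12 and Mmp8) lie in 1 cluster on chromosome 9 and differed from each other in their genotype values, while Mmp14 lies elsewhere and differed in the same direction as Mmp8 and Mmp12. RefSeq promoter sequences for GRCm38.p6 were matched for 7 of the 10 members, which were Mmp8, Mmp12, Mmp13, Mmp14, Timp1, Timp2 and Timp3. Each line gives the 250 bases before the RefSeq start on the plus strand, which is the coding strand of these 4 genes, and capitals mark matches to the motifs searched.
Mmp13, chr9:7272264-7272513 (+): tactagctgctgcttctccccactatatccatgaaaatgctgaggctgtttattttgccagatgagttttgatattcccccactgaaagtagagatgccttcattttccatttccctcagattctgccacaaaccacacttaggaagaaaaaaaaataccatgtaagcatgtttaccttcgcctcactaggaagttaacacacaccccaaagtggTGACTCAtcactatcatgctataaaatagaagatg
Mmp12, first start, chr9:7344147-7344396 (+): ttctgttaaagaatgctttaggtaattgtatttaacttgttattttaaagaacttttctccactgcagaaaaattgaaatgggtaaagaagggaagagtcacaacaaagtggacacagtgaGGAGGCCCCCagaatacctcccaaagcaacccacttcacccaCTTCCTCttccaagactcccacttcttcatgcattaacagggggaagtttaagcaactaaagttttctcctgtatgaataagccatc
Mmp8, chr9:7558179-7558428 (+): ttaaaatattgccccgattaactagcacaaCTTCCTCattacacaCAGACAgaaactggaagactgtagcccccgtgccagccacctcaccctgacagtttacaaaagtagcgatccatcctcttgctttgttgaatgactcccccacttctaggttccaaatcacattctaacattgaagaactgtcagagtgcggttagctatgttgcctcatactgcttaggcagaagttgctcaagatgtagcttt
Mmp14, chr14:54431348-54431597 (+): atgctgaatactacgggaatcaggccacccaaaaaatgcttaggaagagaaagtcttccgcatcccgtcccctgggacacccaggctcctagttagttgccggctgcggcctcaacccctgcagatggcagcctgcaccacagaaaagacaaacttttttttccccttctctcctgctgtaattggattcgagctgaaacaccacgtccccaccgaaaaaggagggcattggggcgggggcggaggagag
The capitals in Mmp13 are the AP-1 motif TGACTCA at positions -35 to -29 from the start, found by searching TGANTCA on both strands, which is present in 6.75% of 32851 promoter windows of the same length. Mmp12 carried a match to the NF-kappaB motif at -129 to -120, which 7.25% of windows hold, and the ETS motif GAGGAAG on the minus strand at -87 to -81, which 10.6% hold. The second annotated start of Mmp12 had the AP-1 motif TGAGTCA at -44 to -38. Mmp8 had the ETS motif on the minus strand at -220 to -214 and the short Smad motif CAGACA, held by 17.1% of windows, at -205 to -200. None of the 7 matched members held the Smad palindrome GTCTAGAC or the TGF-β inhibitory element, which 0.167% and 4.15% of windows hold. Mmp14, Timp1, Timp2 and Timp3 held none of the 6 motifs in these bases. The matches did not overlap each other. These are matches of letters in a short window, and nothing about binding was measured.

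Library totals over the genes of the table lay between 15597300 and 37654100 estimated counts, so 3 counts, used as a floor, were 0.0844 to 0.177 CPM, counts relative to the library total after TMM scaling (trimmed mean of log ratios). Lung tissue transcripts separated KO 1, WT 1 and WT 2, called lung-rich here, from the other 5 libraries. Sftpc, a surfactant gene of the alveolar epithelium, was at 2815 CPM in KO 1 and at 1779.6 and 1593 CPM in WT 1 and WT 2, against 67.9 to 103 CPM in the other 5. The 12 fibroblast markers summed to 1808 CPM in KO 1 and to 1166 and 1120.3 CPM in WT 1 and WT 2, against 138 to 188 CPM elsewhere, and the 10 endothelial markers were divided in the same way. The 12 interstitial macrophage markers, such as C1qa and Csf1r, summed to 10785 CPM in KO 1, 16518 in WT 1 and 18496 in WT 2, against 23654 to 23996 CPM in KO 2 to 4 and 27081 and 27704 CPM in WT 3 and WT 4. Both genotypes occur in both sets, and values are given for all 8 libraries and within each set. In these bulk libraries fewer cells of a type and less RNA per cell cannot be told apart. Tgfbr2 itself averaged 517 ± 65.2 CPM (SD, n = 4) in KO libraries, with a range of 424 to 576 CPM, and lay between 474 and 548 CPM in WT libraries (log2 fold change -0.03, SE 0.12, edgeR adjusted p = 1.00). Whole-gene counts do not show which exons of Tgfbr2 were read, so they do not check its deletion.

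Among the 10 members, Mmp9 stood far above its WT level in every KO library and Mmp14 stood below its WT level in every KO library. Timp2 was moderately higher in KO libraries, also without overlap, and the other 7 members overlapped between genotypes. In the edgeR fit of all 8 libraries 1 member was called higher, Mmp9, and none was called lower, at a background of 0.196% of tested genes called higher and 0.102% called lower. That fit called no gene at all when any library except KO 1 was left out, while the Mmp9 log2 fold change stayed between 3.45 and 3.65 over these fits. By non-overlap 2 members were higher and 1 was lower, at a background of 4.19% and 2.71% of tested genes (6.9% in either direction). The median log2 fold change over the members was -0.29, and that over all tested genes was -0.0083. Since the members were chosen from this contrast, nothing about the family follows from these counts.

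**Figure D1:**
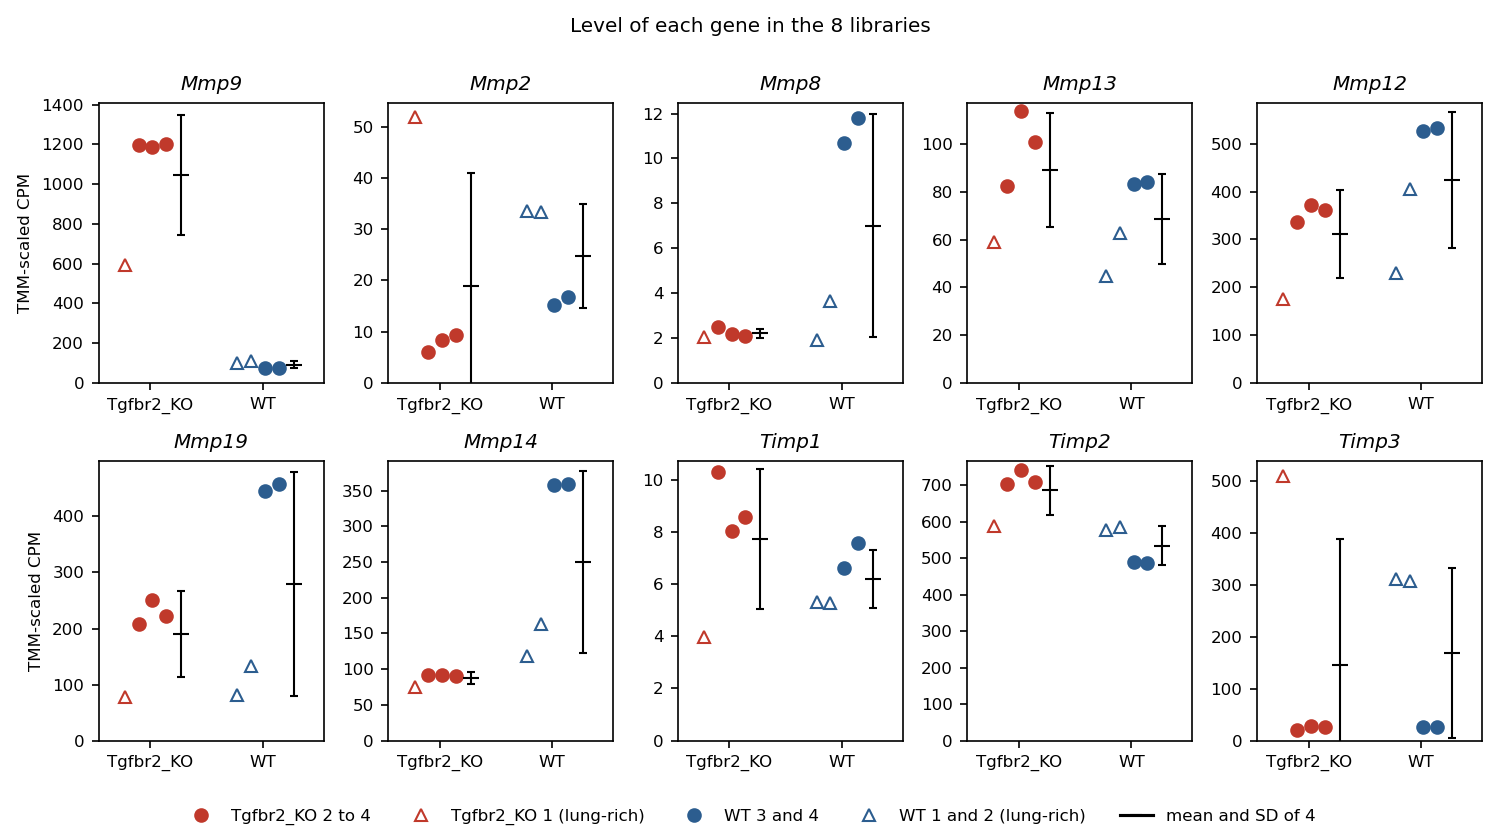
TMM-scaled CPM of the 10 members, 1 panel per gene, with KO libraries left and WT libraries right in each panel; circles are KO 2 to 4 and WT 3 and 4, triangles are the lung-rich libraries, and bars are mean ± SD of 4, whose lower ends are not drawn below 0. Mmp9 has all KO points between 591 and 1204 CPM and all WT points between 74.3 and 112 CPM, while Timp3 divides by library set instead.

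Gelatinases cut denatured collagen and the type IV collagen of basement membranes. Mmp9 (gelatinase B, GRCm38 chr2:164940780-164955850, plus strand) is secreted by macrophages and stored in neutrophil granules. Its level was 591, 1195, 1186 and 1204 CPM in KO 1 to 4, against 99.7, 112, 74.3 and 76.1 CPM in WT 1 to 4. The lowest KO library was thus well above the highest WT library. The means were 1044 ± 302 CPM in KO and 90.5 ± 18.4 CPM in WT libraries (SD, n = 4 each), and the log2 fold change was 3.53 (SE 0.29), an 11.5-fold difference. Within the 5 libraries poor in lung transcripts Mmp9 was 15.9-fold higher in KO (log2 fold change 3.99, SE 0.06), and within the lung-rich set KO 1 was 5.57-fold higher than WT 1 and WT 2 (2.48, SE 0.06). The gene was therefore higher in KO within both sets, by different amounts. The lung-rich set holds 1 KO library, so its SE here and below rest on the spread of the other libraries. Counts behind these values were high, from 17866 to 28674 in KO and from 1449 to 2704 in WT libraries.

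KO 1, the KO library with the lowest Mmp9, also had the lowest sum of interstitial macrophage markers. Expressed as a percent of that sum, Mmp9 was 5.48, 5.05, 4.94 and 5.05% in KO 1 to 4, against 0.603, 0.606, 0.274 and 0.275% in WT 1 to 4. On this scale, chosen after the data were seen, the 4 KO libraries lay close together, and the WT libraries fell into the lung-rich pair and the other pair. The marker sum is not neutral between genotypes: edgeR with a term for the library set called 4 of its 12 genes lower in KO, among them Cx3cr1. The sum was also lower in KO 1 than in WT 1 and WT 2, which raises any gene of KO 1 on this scale. What share of all genes does not overlap on this scale was not computed.

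Mmp2 (gelatinase A, chr8:92827291-92853420, plus strand) is made mainly by fibroblasts and is activated at the cell surface by MMP14 together with TIMP2. It was at 51.9, 6.08, 8.31 and 9.4 CPM in KO 1 to 4, against 33.5, 33.4, 15.2 and 16.8 CPM in WT 1 to 4. The 3 highest values are those of the lung-rich libraries, in which each of the 12 fibroblast markers was also higher than in every other library. Over all 8 libraries the log2 fold change was -0.38 (SE 0.74), with overlapping groups. It was -1.03 (SE 0.14) within the 5 other libraries and 0.63 (SE 0.16) within the lung-rich set, so the direction differed between the sets. The part of fibroblast RNA in these values was not tested.

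Collagenases cut intact fibrillar collagen. Mmp8, the neutrophil collagenase (chr9:7558456-7568485, plus strand), was at 2.05, 2.5, 2.19 and 2.09 CPM in KO 1 to 4, against 1.89, 3.64, 10.7 and 11.8 CPM in WT 1 to 4. The 4 KO libraries were alike and low, and only WT 3 and WT 4 stood clearly above them. These are the lowest levels of the 10 genes per length, from 38 to 62 counts in KO and from 32 to 420 counts in WT libraries. The log2 fold change was -1.67 (SE 0.56) over all libraries, -2.31 (SE 0.22) within the 5 other libraries and -0.47 (SE 0.34) within the lung-rich set. Mmp13 (collagenase 3, chr9:7272514-7283331, plus strand), a main interstitial collagenase of mice, was at 58.9, 82.7, 114 and 101 CPM in KO 1 to 4, against 44.8, 62.8, 83.5 and 84.1 CPM in WT 1 to 4. Its groups overlapped in all libraries and within each set, and its log2 fold change was 0.37 (SE 0.26). As a percent of the macrophage marker sum, Mmp13 was 0.35 to 0.546% in KO and 0.271 to 0.339% in WT libraries. The groups did not overlap on that scale, but KO 2 (0.35%) lay close to WT 2 (0.339%). How many of all genes do the same was not computed. The highest percent of Mmp13 was that of KO 1, the library with the lowest marker sum.

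Mmp12, the macrophage elastase (chr9:7344381-7369499, plus strand), and Mmp19, a secreted metalloproteinase (chr10:128790910-128800824, plus strand), had lower CPM in KO libraries within each set. Mmp12 was at 175, 336, 372 and 361 CPM in KO 1 to 4, against 229, 406, 526 and 534 CPM in WT 1 to 4. The groups overlapped over all libraries (log2 fold change -0.45, SE 0.33), since WT 1 lay below KO 2 to 4, but not within the 5 others (-0.57, SE 0.24) or the lung-rich set (-0.87, SE 0.34). Mmp12 was 1.42 to 1.62% of the macrophage marker sum in KO and 1.39 to 2.19% in WT libraries, and on that scale KO 1 lay between WT 1 and WT 2.
Mmp19 was at 78.5, 208, 251 and 223 CPM in KO 1 to 4, against 80.7, 133, 445 and 458 CPM in WT 1 to 4. WT 1 and WT 2 lay below KO 2 to 4, so the pooled groups overlapped (log2 fold change -0.55, SE 0.63), while the differences within sets were -0.99 (SE 0.21) and -0.45 (SE 0.30). In the lung-rich set KO 1 was below WT 1 by little, and against the macrophage marker sum the order turned there, with 0.728% in KO 1 and 0.489 and 0.719% in WT 1 and WT 2. Mmp19 overlaps Tmem198b on the opposite strand, and which strand setting was used in counting is not stated in the sources at hand. Tmem198b was at 22.2 to 39.2 CPM in KO and 21.8 to 29.5 CPM in WT libraries.

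Mmp14 encodes MT1-MMP (chr14:54431612-54445364, plus strand), which cuts collagen at the cell surface and activates pro-MMP2. It was at 75.6, 92.4, 91.9 and 90.7 CPM in KO 1 to 4, against 118, 163, 358 and 359 CPM in WT 1 to 4. Every KO library was below every WT library. KO libraries averaged 87.7 ± 8.04 CPM and WT libraries 249 ± 127 CPM (SD, n = 4 each), with a log2 fold change of -1.51 (SE 0.37). WT values were spread by library set more than KO values were. Mmp14 was 3.91-fold lower in KO 2 to 4 than in WT 3 and WT 4 by mean CPM (log2 fold change -1.97, SE 0.12) and 1.85-fold lower in KO 1 than in WT 1 and WT 2 (-0.89, SE 0.17). Against the macrophage marker sum the lung-rich difference was smaller: the KO 1 value of Mmp14 was 0.701%, and the lung-rich WT values were 0.713 and 0.88%. In the other set it was 0.381 to 0.391% in KO 2 to 4, against 1.32 and 1.30% in WT 3 and WT 4. The lower Mmp14 of KO cells thus rests mainly on the 5 other libraries on that scale.

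**Figure D2:**
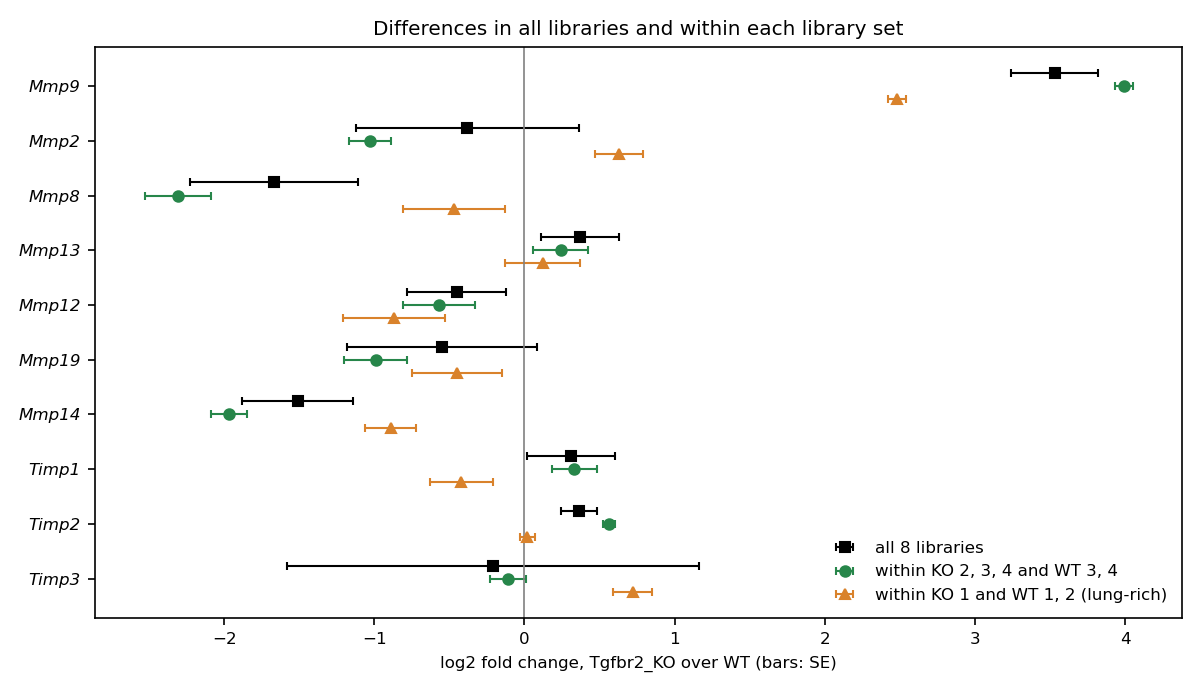
Log2 fold change of KO over WT with SE bars for the 10 members, from all 8 libraries (squares), within KO 2 to 4 and WT 3 and 4 (circles) and within KO 1 and WT 1 and 2 (triangles). Mmp9 lies right of 0 and Mmp14 left of 0 in all 3 fits, whereas Mmp2, Timp1 and Timp3 change side between the sets.

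The 2 genes that separated the genotypes most clearly differed in opposite directions, so their ratio divided the groups further than either level. Mmp9 CPM over Mmp14 CPM was 7.81, 12.9, 12.9 and 13.3 in KO 1 to 4, against 0.847, 0.688, 0.208 and 0.212 in WT 1 to 4. Mmp9 reads thus exceeded Mmp14 reads in each KO library and fell short of them in each WT library. The ratio uses 2 genes of 1 library and does not depend on its scaling, but it compares CPM without regard to length, so it is read between libraries only.

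Neutrophil RNA is given beside Mmp9 because neutrophils store MMP9. S100a8 and S100a9 encode the calprotectin subunits, which are abundant in neutrophils and also present in monocytes. S100a8 was at 11.6, 7.5, 7.49 and 9.18 CPM in KO 1 to 4, against 12.7, 8.83, 16.5 and 16.5 CPM in WT 1 to 4. S100a9 was at 25.7, 19.2, 19.9 and 19.3 CPM in KO 1 to 4, against 25.3, 16.2, 36.2 and 35.4 CPM in WT 1 to 4. Every KO value of both genes lay below WT 3 and WT 4, and the KO range overlapped that of WT 1 and WT 2. Their log2 fold changes were -0.61 (SE 0.24, edgeR adjusted p = 0.423) and -0.43 (SE 0.26, edgeR adjusted p = 0.712). In the fit with separate effects per set, the difference within the 5 other libraries was -1.04 for S100a8 (SE 0.15, edgeR adjusted p = 4.20e-04). For S100a9 it was -0.88 (SE 0.15, edgeR adjusted p = 0.00271), and both were lower in KO. Within these 5 libraries that fit called 2016 of 12750 tested genes higher and 1895 lower. Its SE and p-values there may be too small, since the counts cannot show whether the libraries are separate samples. Within the lung-rich set, which holds 1 KO library, the same fit gave 0.13 for S100a8 (SE 0.20) and 0.32 for S100a9 (SE 0.20).

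Of 18 neutrophil markers, 14 passed the filter on low counts, with a median log2 fold change of -0.19. Over the 8 libraries edgeR called none of them higher and none lower, where it called only 0.196% and 0.102% of all tested genes. The summed level of the 18 was 237, 245, 303 and 275 CPM in KO 1 to 4, against 227, 221, 433 and 435 CPM in WT 1 to 4. The highest Mmp9 values therefore stood beside intermediate sums, but these also count Csf3r, Il1r2 and Trem1, receptors that monocytes also make. Csf3r alone was at 60.6 to 119 CPM in KO and 68.2 to 142 CPM in WT libraries. The granule genes Elane and Ctsg had 0 counts in every library, and Ly6g, Camp and Mpo stayed under 1 CPM throughout. Ngp, Ltf, Retnlg and Cxcr2 were detected in every library, at 1.33 to 6.15 CPM. Lcn2 was at 37.3 CPM in KO 1 and 2.2 to 2.33 CPM in KO 2 to 4, against 5.57 to 21.5 CPM in WT libraries. Within the 5 other libraries its log2 fold change was -1.46 (SE 0.16) in the fit with separate effects per set. Within the lung-rich set it was 0.91. How much neutrophil RNA the libraries held was not tested. With a term for the library set, edgeR called 3 of the 14 tested markers lower in KO and 0 higher, where it called 7.89% and 8.59% of all tested genes. These were Csf3r, Il1r2 and Trem1 (log2 fold changes -0.28, -0.64 and -0.86). Fitted to the 5 other libraries alone, it called 9 of the 14 lower and 0 higher, where 18.7% and 19.7% of 12624 tested genes were called. Padi4, which encodes an enzyme of neutrophil extracellular traps, was at 1.82, 5.42, 23.2 and 15.4 CPM in KO 1 to 4, against 1.77, 1.41, 3.33 and 2.67 CPM in WT 1 to 4, and was named after its values were seen. Mmp9 CPM over S100a8 CPM was 50.8, 159, 158 and 131 in KO 1 to 4, against 7.84, 12.7, 4.5 and 4.61 in WT 1 to 4. Classical monocyte markers summed to 1019 to 2645 CPM in KO and 1298 to 2662 CPM in WT libraries.

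**Figure D3:**
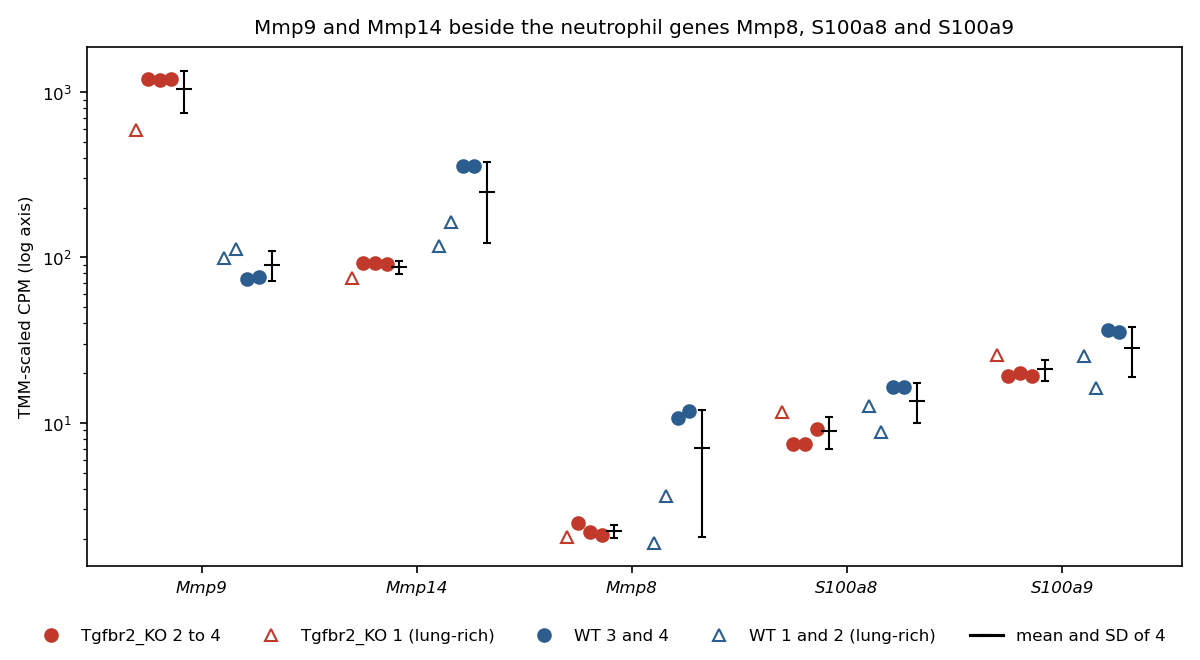
TMM-scaled CPM on a log axis of Mmp9, Mmp14, Mmp8, S100a8 and S100a9, with KO libraries left of WT libraries for each gene, triangles for the lung-rich libraries and bars for mean ± SD of 4. Only Mmp9 has its KO points above its WT points, while S100a8 lies between 7.49 and 11.6 CPM in KO and between 8.83 and 16.5 CPM in WT libraries.

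The inhibitors differed less between genotypes than Mmp9 did. Timp1 (chrX:20870166-20874735, plus strand), which binds the proenzyme of MMP9, was at 3.97, 10.3, 8.05 and 8.58 CPM in KO 1 to 4, against 5.32, 5.27, 6.62 and 7.59 CPM in WT 1 to 4. The groups overlapped (log2 fold change 0.31, SE 0.29), with KO higher in the 5 other libraries and lower in the lung-rich set. Against the macrophage marker sum the Timp1 groups did not overlap, at 0.0336 to 0.0435% in KO and 0.0244 to 0.0322% in WT libraries, and the share of all genes that do the same was not computed. On that scale KO 1, which has the lowest marker sum, lay above WT 1 and WT 2, although its CPM was below theirs. Timp1 lies inside Syn1, a synapsin gene on the opposite strand, which was at 4.56 to 11.2 CPM in KO and 1.12 to 2.51 CPM in WT libraries, so reads of the pair may have been divided between them. Mmp9 CPM was 116 to 149 times Timp1 CPM in KO libraries and 10.0 to 21.3 times in WT libraries.

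Timp2 (chr11:118301069-118355740, minus strand) both inhibits MMP2 and helps MMP14 to activate it. Its level was 589, 705, 743 and 710.0 CPM in KO 1 to 4, against 577, 586, 489.8 and 486 CPM in WT 1 to 4. KO libraries lay above WT libraries without overlap, but KO 1 exceeded WT 2 by little. The log2 fold change was 0.36 (SE 0.12) over all libraries, 0.56 (SE 0.04) within the 5 others and 0.02 (SE 0.05) within the lung-rich set. Against the macrophage marker sum the Timp2 groups overlapped, at 2.98 to 5.46% in KO and 1.75 to 3.49% in WT libraries. Mmp14 CPM over Timp2 CPM lay between 0.124 and 0.131 in the 4 KO libraries and between 0.204 and 0.738 in the WT libraries.

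Timp3 (chr10:86300372-86349506, plus strand) encodes the inhibitor that binds to the matrix and also blocks the sheddase ADAM17. It was at 509, 20.2, 28.0 and 26.3 CPM in KO 1 to 4, against 312, 308, 26.3 and 26.9 CPM in WT 1 to 4. The 3 lung-rich libraries stood far above the other 5. They also exceeded the other 5 for all 12 fibroblast, all 10 endothelial and 11 of 12 epithelial markers. The part of those cells in the Timp3 values was not tested. Within the lung-rich set KO 1 was above WT 1 and WT 2 (log2 fold change 0.72, SE 0.13), and its fibroblast marker sum was also the highest, at 1808 CPM. Within the 5 other libraries the groups overlapped, with a log2 fold change of -0.11 (SE 0.12). Syn3, which surrounds Timp3 on the opposite strand, did not exceed 0.628 CPM.

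Within the sets the members' counts stand against a high background. Non-overlap in the 5 other libraries held for 3 members higher and 5 lower, where 29.0% and 30.2% of all tested genes did the same (59.1% in either direction). In the lung-rich set it held for 4 higher and 4 lower, with a background of 46.4% and 32.8% (79.2% in either direction). With a term for the library set, edgeR called 2 members higher (Mmp9 and Timp2) and 4 lower (Mmp8, Mmp12, Mmp19 and Mmp14), where it called 8.59% of tested genes higher and 7.89% lower. Fitted to the 5 other libraries alone, it called 2 members higher and 5 lower, where 19.7% and 18.7% of 12624 tested genes were called.

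Levels can be set side by side between genes only per length, here as CPM per kb of the median protein-coding transcript. In KO libraries Mmp9 ranked first with 581 ± 168 CPM per kb, followed by Timp2 with 310.3 ± 30.6 and Mmp12 with 236 ± 69.8 (SD, n = 4). Mmp9 was 661 to 670.4 CPM per kb in KO 2 to 4 and 329 in KO 1, which lies within the range of Timp2 (266 to 336), and Timp2 and Mmp12 overlapped each other. WT libraries had Mmp12 first with 321 ± 108 CPM per kb, then Timp2 with 242 ± 24.5, Mmp19 with 99.1 ± 71.1 and Mmp14 with 96.0 ± 49.0. Mmp12 and Timp2 overlapped in WT libraries, as did Mmp19 and Mmp14, so their order is not fixed. Mmp9 was sixth there with 50.4 ± 10.3 CPM per kb. With the longest transcript as the length Mmp9 was again first in KO libraries and sixth in WT libraries, and Timp2 was first in WT libraries.

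As a share of the summed CPM per kb of the 7 metalloproteinases, Mmp9 made up 57.8, 62.5, 59.2 and 60.8% in KO 1 to 4, against 16.4, 11.9, 5.31 and 5.34% in WT 1 to 4. Mmp12 made up 23.3 to 25.3% in KO and 51.0 to 58.9% in WT libraries. Mmp14 made up 3.17 to 5.12% in KO and 12.0 to 17.7% in WT libraries, and Mmp19 4.9 to 7.99% and 8.45 to 20.5%. None of these 4 genes overlapped between genotypes in its share, and since shares sum to 100% a higher share of Mmp9 lowers those of the others. Mmp2 held 4.86% in KO 1 and 5.26 and 3.41% in WT 1 and WT 2, against at most 1.13% elsewhere. Among the inhibitors Timp2 held 94.0 to 94.3% of the summed CPM per kb in KO 2 to 4 and 92.4 and 91.9% in WT 3 and WT 4. In the lung-rich libraries it held 56.4% in KO 1 and 66.8 and 67.5% in WT 1 and WT 2, with Timp3 making up nearly all of the rest.

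**Figure D4:**
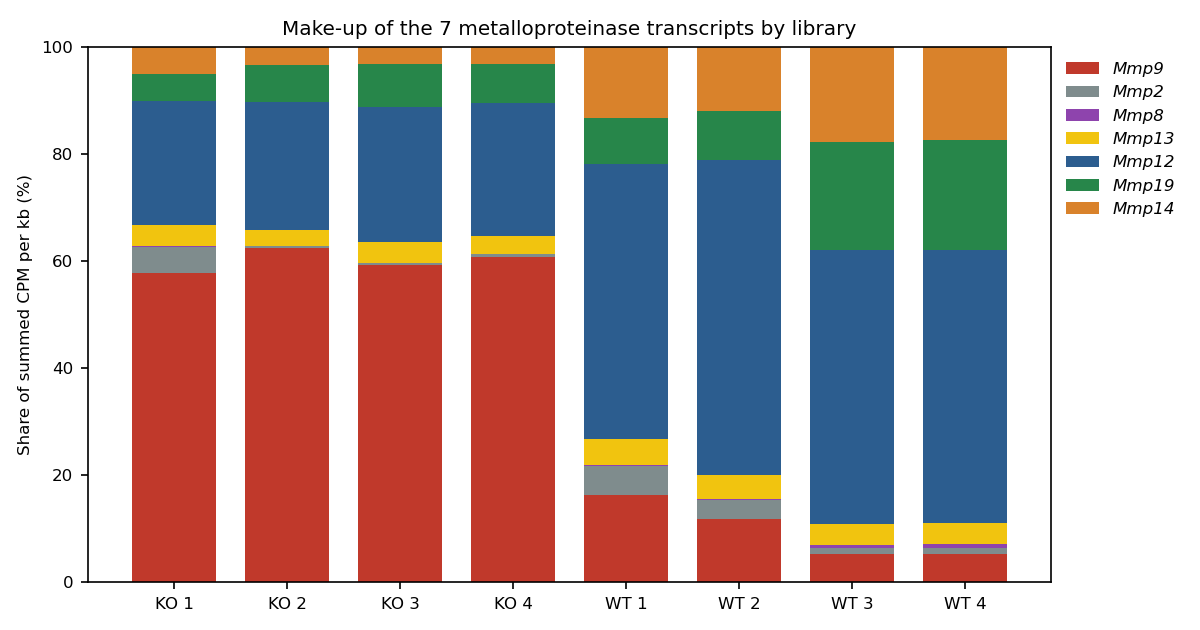
Share of each metalloproteinase in the summed CPM per kb of the 7, in percent, stacked by library with KO 1 to 4 left of WT 1 to 4. Mmp9 fills 57.8 to 62.5% of each KO bar and 5.31 to 16.4% of each WT bar, and Mmp12 is the widest band of every WT bar.

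The rest of the proteolysis system was examined in 8 lists of 134 genes, of which 105 were tested. In the fit of all 8 libraries edgeR called none of them higher and 1 lower, where it called 0.196% and 0.102% of all tested genes. The median log2 fold change of the 105 genes was -0.13. The gene called lower was Itgav, the integrin αv subunit, a surface partner of these enzymes and an activator of latent TGF-β. It was at 93.1, 106, 99.8 and 103 CPM in KO 1 to 4, against 155, 146, 182 and 178 CPM in WT 1 to 4, and the groups did not meet (log2 fold change -0.72 with an SE of 0.09, edgeR adjusted p = 0.035). This call was lost when any library except KO 1 was left out and in the unfiltered fit. A term for the library set gave 13 of the 105 genes higher and 13 lower, beside a background of 8.59% and 7.89% of all tested genes. The same background applies to the counts per list with the set term below.

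Among 16 other metalloproteinase genes only 6 were tested, and 7 were under 1 CPM in every library. With the set as a term Mmp25, a membrane-anchored metalloproteinase of leukocytes, was called lower, and Mmp15, a membrane-type enzyme, higher. Mmp25 had a log2 fold change of -0.76 (SE 0.14) in that fit and -0.54 (SE 0.54) in the pooled one, with overlapping groups. Mmp15 was at 89.2 CPM in KO 1 and 56.7 and 50.3 CPM in WT 1 and WT 2, against at most 3.79 CPM in the other 5, the same division by set as Timp3. Of 9 other inhibitors 5 were tested, and Pcolce, which encodes an enhancer of procollagen processing, was called higher with the set term. Pcolce was at 51.6, 38.2, 43.0 and 40.3 CPM in KO 1 to 4, against 33.2, 26.2, 6.51 and 5.26 CPM in WT 1 to 4, and every KO value exceeded every WT value (pooled log2 fold change 1.28 with an SE of 0.61, edgeR adjusted p = 0.547).

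Of 13 genes of the ADAM family, which includes cell-surface sheddases, 10 were tested. Under the set term 1 was called higher and 4 lower, where 8.59% and 7.89% of all tested genes were called. Adam17, the TNF-converting enzyme, was among the lower ones at 191, 300.0, 292 and 298 CPM in KO 1 to 4, against 281, 293, 381 and 372 CPM in WT 1 to 4 (log2 fold change -0.43, SE 0.06, with the set as a term). Adam33 was called higher, at 7.37 to 18.8 CPM in KO and 5.44 to 7.6 CPM in WT libraries. Of 19 ADAMTS genes 12 were tested, and Adamts5 and Adamts14 were called higher under the set term, both under 5 CPM in every library. In the fit of all 8 libraries no ADAM or ADAMTS gene was called.

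Plasmin activates several pro-MMPs, and 13 of 15 genes of plasminogen and convertase activation were tested. Plaur, the urokinase receptor, was called lower with the set term, and Serpinb2 and Pcsk7 were called higher. Serpinb2, which encodes a serpin, was at 1.98, 12.1, 60.5 and 38.2 CPM in KO 1 to 4, against 1.18, 0.922, 1.74 and 1.94 CPM in WT 1 to 4.

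All 16 genes of surface and binding partners were tested. With the set term 6 of these partners were called lower and none higher, where 7.89% and 8.59% of all tested genes were called. The 6 lower ones were Cd44, a docking receptor for MMP9, Lrp1, which takes up MMP9 and TIMP complexes, the TIMP1 receptor Cd63, the integrin subunits Itgb2 and Itgav, and Cd9. Cd9, a tetraspanin, was at 174 to 221 CPM in KO and 302 to 462 CPM in WT libraries, with each KO value under each WT value (pooled log2 fold change -1.05 with an SE of 0.16, edgeR adjusted p = 0.059). Of 21 known transcriptional regulators of Mmp9, 20 were tested and none was called in the pooled fit. With the set term 5 of the 20 were called higher (Jun, Jund, Rela, Ets1 and Egr1) and 0 lower, where 8.59% and 7.89% of all tested genes were called. Jund, an AP-1 subunit, was at 695, 949.8, 1065 and 1049.8 CPM in KO 1 to 4, against 628, 608, 655 and 654 CPM in WT 1 to 4, with each KO value over each WT value (pooled log2 fold change 0.56 with an SE of 0.15, edgeR adjusted p = 0.192). Of 25 matrix substrates 23 were tested, and Lamc1, a laminin chain, was the only one called with the set term.

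Genes with a profile like that of Mmp9 were ranked by Pearson's r of log2 CPM over the 8 libraries among 8678 genes with a mean of at least 10 CPM. The 5 highest were Cd209g (0.995), Cd209f (0.995), Gprc5c (0.993), Kif23 (0.990) and Lyz1 (0.989). Cd209f, a C-type lectin gene, was at 62.9, 128, 132 and 125 CPM in KO 1 to 4, against 7.69, 7.77, 3.33 and 3.21 CPM in WT 1 to 4. Lyz1, a lysozyme gene and a near copy of Lyz2, was at 759 to 1758 CPM in KO and 138 to 174 CPM in WT libraries, and reads of the 2 copies may have been divided. Lyz2, in which the Cre of the KO donors lies, was at 3439.9 to 5611 CPM in KO and 7285 to 13193 CPM in WT libraries. On the same measure Timp2 had an r of 0.909 with Mmp9, Mmp14 of -0.819, S100a9 of -0.584 and S100a8 of -0.785. The points are 8 libraries of 2 genotypes and 2 sets, so these r describe that division and carry no p.

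Among genes near Mmp9, Slc12a5 was looked at after its values were seen. It starts 20.0 kb past the Mmp9 start on the same strand (chr2:164960802-164999731), 4.95 kb beyond the Mmp9 end, and encodes KCC2, a potassium chloride cotransporter of neurons. It was at 16.8, 26.0, 25.4 and 23.4 CPM in KO 1 to 4, against 4.32, 4.48, 1.9 and 2.39 CPM in WT 1 to 4, without overlap (log2 fold change 2.81, SE 0.32). Slc12a5 was 1 of 4 tested genes within 50 kb of Mmp9 and the only one of them called. The other 3, Pcif1, Zfp335 and Ncoa5, had log2 fold changes of 0.03, 0.09 and -0.07, and they were called neither with the set term nor in the 5 other libraries alone. Whether reads past the end of Mmp9 were counted as Slc12a5 was not tested. In the pooled fit, which did not call Mmp14 itself, none of the 3 tested genes within 50 kb of Mmp14 was called, and Mrpl52, which ends 1.86 kb before the Mmp14 start, had a log2 fold change of -0.41. Under the set term, which called Mmp14 lower, Mrpl52 (-0.50, SE 0.09) and Slc7a7 (-0.27, SE 0.06) were also called lower, and Lrp10 (-0.09, SE 0.06) was not. All 3 were called lower in the 5 other libraries alone.

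**Figure D5:**
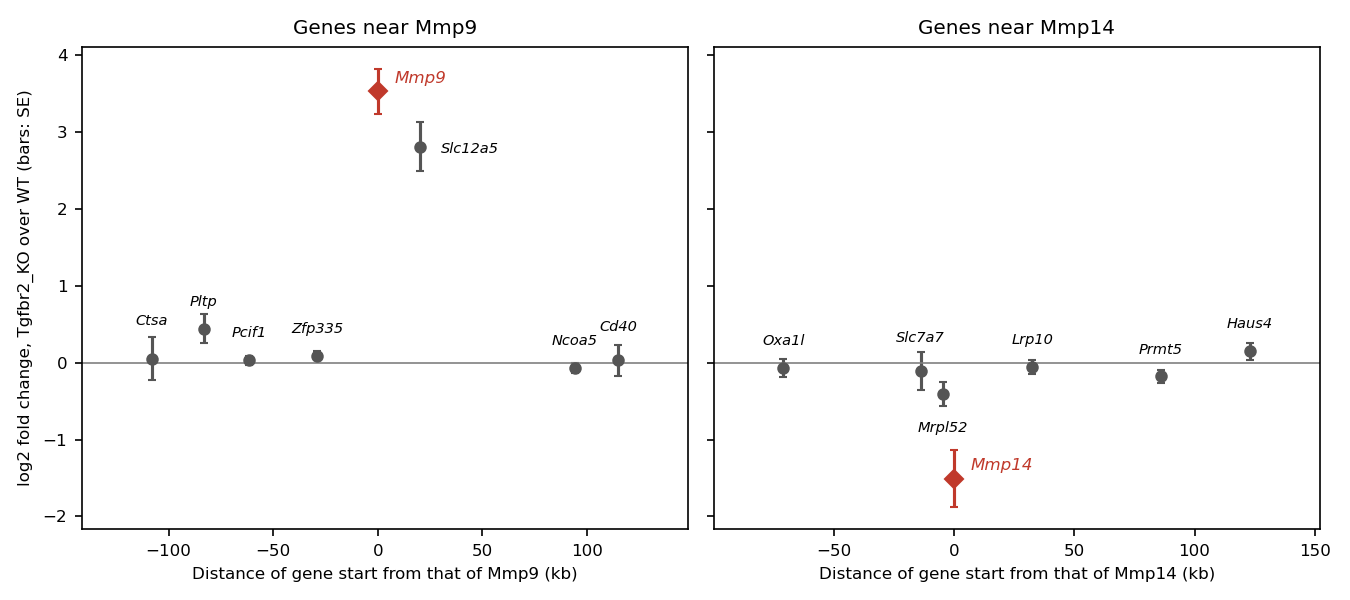
Log2 fold change of KO over WT with SE bars for genes within 100 kb of Mmp9 (left) and of Mmp14 (right), against the distance in kb between gene starts; diamonds are Mmp9 and Mmp14. Slc12a5, at 2.81, is the neighbour of Mmp9 farthest from 0, and its other neighbours lie between -0.07 (Ncoa5) and 0.44 (Pltp, SE 0.19). The neighbours of Mmp14 lie between -0.41 and 0.15.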

How the data were processed

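The authors deposited 1 table of estimated counts per gene made with salmon, per the file name and header, with columns matched to samples by title. GRCm38 and DESeq2 1.40.1 appear in the submitters' processing notes. No source used here gives the strand setting, annotation or version of salmon. Per the labels' protocols, RNA was extracted with TRIzol, and 100 ng went into a stranded mRNA kit read on a NovaSeq. Whole numbers (tolerance 1e-6) made up 81.8% to 84.8% of each library's values.

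The main test on the rounded estimated counts was that of edgeR 4.0.16 under R 4.3.3 (robust quasi-likelihood F-test, group only, TMM, filterByExpr with minimum count 10 and minimum total 15, Benjamini-Hochberg threshold 0.05), with limma 3.58.1 and DESeq2 1.42.0 beside it. SE is the absolute log2 fold change over the square root of F. CPM are TMM-scaled and rest on the totals of each library, given with the floor of 3 counts that limits low values. Effects within library sets came from 1 fit with group by set, in which KO 1 alone gives the lung-rich KO level. Gene positions and lengths are from GENCODE M21. Promoters are from RefSeq, with no entry for Mmp2, Mmp9 and Mmp19.

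The members, library sets, marker and pathway lists were chosen with earlier results of these data known, so nothing said of them is independent support. Some genes are in more than 1 list. Named genes were the members, S100a8, S100a9, up to 4 called genes per list, the 5 genes most like Mmp9, and the checks Sftpc, Tgfbr2 and Lyz2. Other genes named, including those called only with the set term, the marker genes and the neighbours, were chosen after their values were seen, and 1 gene of a pathway list is not reported here. WT 3 and WT 4 were the closest pair of replicate libraries (median chi-square 1.86 times counting noise). Pairs among KO 2 to 4 were nearly as close (2.06 to 3.08), and WT 1 and WT 2 lay at 4.29. The counts cannot show whether any of these are separate samples, so SE and p-values within the 5 other libraries may be too small. Each library counted as 1, and the sum of WT 3 and WT 4 was an alternative. Whether replicate numbers of the labels pair libraries was not settled. Deviations of same-numbered libraries correlated at 0.87, -0.79, 0.69 and 0.75, and the sign of each follows whether the 2 libraries share a library set. Alternatives were other scalings, filter, tool, library sets, a block and each library left out, and, chosen after seeing the data, scaling to macrophage markers and a neighbour window of 100 kb.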

Additional observations from a re-analysis of the deposited data

Results flagged for a closer look

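Among 28 groups of 4 libraries that were screened (each of the 10 members and 4 further genes in each genotype), 7 had 1 library far from the other 3. Chance flags about 1 in 20 such groups. In KO 1, Mmp9 was lowest at 591 CPM, where KO 2 to 4 lay between 1186 and 1204 CPM, and Mmp14 was lowest at 75.6 CPM, where the others lay between 90.7 and 92.4 CPM. The same library was highest for Mmp2, at 51.9 CPM against 6.08 to 9.4 CPM, for Timp3, at 509 CPM against 20.2 to 28.0 CPM, and for S100a9, at 25.7 CPM against 19.2 to 19.9 CPM. KO 1 was also lowest for Lyz2, at 3439.9 CPM against 5448 to 5611 CPM. KO 1 is the only lung-rich library of its group. The remaining one was WT 2, lowest for Tgfbr2 at 474 CPM where the other WT libraries lay between 542 and 548 CPM.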

How the results depend on the processing

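Over 17 alternatives Mmp9 kept its direction (log2 fold change 2.41 to 3.99), as did Mmp14 (-1.96 to -0.96), Mmp8 (-2.31 to -0.52), Mmp12 (-0.93 to -0.25), Mmp19 (-0.99 to -0.15) and Mmp13 (0.06 to 0.54). Mmp2 kept it in 16 (-1.64 to 0.57), Timp2 in 16 (-0.05 to 0.56), Timp1 in 15 (-0.48 to 0.53) and Timp3 in 9 (-2.76 to 0.65). Calls depended on the fit. All genes called higher and lower numbered 25 and 13, against 314 and 152 by the DESeq2 Wald test, 1095 and 1006 with a term for the library set, 2493 and 2363 when only the 5 other libraries were fitted, 443 and 273 from the 3 lung-rich ones, and 318 and 491 with WT 3 and WT 4 summed and the set as a term. In the same order members called higher numbered 2, 2, 2, 3 and 1 and members called lower 1, 4, 5, 0 and 1, where the reported counts were 1 and 0. Pathway genes called higher numbered 4, 13, 30, 19 and 2 and called lower 5, 13, 23, 4 and 10, where the reported counts were 0 and 1, and 0 were called lower without the filter. Neutrophil markers called higher numbered 1 by DESeq2 and 1 in the lung-rich libraries. The cause of these differences was not tested. With the replicate number as a block, edgeR called 0 genes higher and 0 lower, 0 members and 0 pathway genes, with 1479 genes at an unadjusted p under 0.05 and a Mmp9 log2 fold change of 3.50. No KO library correlated best with the WT library of its own number.

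With 1 library left out, all genes called higher ranged from 0 to 619 and lower from 0 to 241, members called higher from 0 to 2, pathway genes called higher from 0 to 9 and lower from 0 to 4, and neutrophil markers called higher from 0 to 1. The highest value of each came without KO 1 and 0 without any other library, where edgeR still gave 807 to 1451 genes at an unadjusted p under 0.05. S100a8 and S100a9 changed sign only in the 3 lung-rich libraries, at 0.06 and 0.25. Depth limits Mmp8 and Timp1 most, at 32 to 420 and 90 to 270 counts.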
